A study of Mus musculus with 6 samples.

Results

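The genes described here encode enzymes that break down the branched-chain amino acids leucine, isoleucine and valine. They are the 10 genes Bcat1, Bcat2, Bckdha, Bckdhb, Dbt, Ivd, Mccc1, Mccc2, Pcca and Pccb, chosen by name. Every probe set that the platform annotation pairs with 1 of these symbols and no other was taken, which gave 17 of the 45101 probe sets on the array. RNA came from the epididymal fat pads of males that were 10 weeks old, and each mouse had its own array. The 3 transgenic mice (strain label aP2-nSrebp1c Tg on C57BL6;SJL) carry nuclear SREBP-1c, the active form of a transcription factor of lipid synthesis, under the aP2 (Fabp4) promoter. That promoter works in fat cells, though macrophages can use it too. The strain label of the transgenic mice is spelled in 3 ways, with nSrebp1c, nSrebp1 and SREBP1c, and their titles put them in 1 group. The 3 wild type mice (WT C57BL6;SJL) were litter-matched, per the series design, and carry no stated allele. The labels call the series one of lipodystrophic mice, in which fat is lost or poorly formed.

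Breakdown starts with a transaminase, Bcat2 in mitochondria or Bcat1 in the cytosol, which moves the amino group to a common acceptor. The branched-chain ketoacid dehydrogenase complex then removes a carbon in an irreversible step. Bckdha and Bckdhb encode its decarboxylase subunits and Dbt its core acyltransferase. Past that point the routes part: leucine carbon passes through isovaleryl-CoA dehydrogenase (Ivd) and methylcrotonyl-CoA carboxylase (Mccc1 and Mccc2), and isoleucine and valine carbon reaches propionyl-CoA carboxylase (Pcca and Pccb). Mature fat cells run this pathway actively and can feed its acetyl-CoA and propionyl-CoA into fatty acids.

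The upstream sequences of the leucine-branch genes are given because Ivd held the only member probe set that passed the test over all arrays and the subunit genes Mccc1 and Mccc2 lay on opposite sides of wild type. Each line holds the 250 bases before the annotated start, 5′ to 3′ on the gene's strand, from RefSeq on GRCm38.p6. The Ivd stretch is chr2:118861744-118861993 (plus strand), that of Mccc1 is chr3:36000679-36000928 (minus strand) and that of Mccc2 is chr13:100015640-100015889 (minus strand). Capitals mark matches on either strand to 3 motifs: the E-box CACGTG, of a kind that SREBP-1 can bind, the CCAAT box CCAAT, bound by the factor NF-Y that works with SREBPs, and the CACCC box CACCC of Krueppel-like factors.
Ivd: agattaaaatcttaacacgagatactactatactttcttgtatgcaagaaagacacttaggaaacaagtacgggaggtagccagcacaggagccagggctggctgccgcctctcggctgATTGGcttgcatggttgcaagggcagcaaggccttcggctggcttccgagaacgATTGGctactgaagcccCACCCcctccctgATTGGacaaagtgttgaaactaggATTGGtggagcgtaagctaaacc
Mccc1: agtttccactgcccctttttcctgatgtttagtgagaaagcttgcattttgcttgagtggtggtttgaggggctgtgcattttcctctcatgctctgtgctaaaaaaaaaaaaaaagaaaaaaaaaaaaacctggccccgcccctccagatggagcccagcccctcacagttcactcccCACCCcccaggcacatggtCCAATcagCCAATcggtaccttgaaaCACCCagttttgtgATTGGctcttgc
Mccc2: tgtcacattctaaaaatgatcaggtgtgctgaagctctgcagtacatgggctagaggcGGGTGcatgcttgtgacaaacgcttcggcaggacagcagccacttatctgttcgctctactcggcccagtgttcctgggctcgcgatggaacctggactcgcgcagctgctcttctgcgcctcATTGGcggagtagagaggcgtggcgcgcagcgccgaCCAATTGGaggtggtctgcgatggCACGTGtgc
The Ivd stretch holds 4 CCAAT boxes, and those of Mccc1 and Mccc2 hold 3 each. In Mccc2 the longest run of capitals is a CCAAT box on each strand, overlapping. Of all 32851 promoters in the table, 33.8% hold a CCAAT box in the same window, 2.79% hold at least 3 and 0.84% at least 4. There is 1 CACCC box in Ivd, 2 are in Mccc1 and 1 is in Mccc2, against 52.0% of all promoters with any. An E-box occurs in Mccc2, against 6.02% of all promoters. Across the 13 upstream windows listed for 9 of the 10 genes, 7 hold a CCAAT box, 8 a CACCC box and 1 an E-box. Of the genes not printed here, Bcat1, Bckdhb and Pcca have a window with a CCAAT box. Bcat2, Bckdha and Pccb have none, and Bcat2 and Pccb were among the genes called lower without transgenic replicate 2. CCAAT boxes were thus found in genes that were not called and missing from genes that were. A match or its absence here describes the letters in these windows.

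The deposited values are MAS5 signals, a linear intensity per probe set. The array of transgenic replicate 2 stood apart: its beta-actin control was 122 times as bright at the 3′ as at the 5′ end, against 1.11 to 1.81 times on the other 5 arrays, which is the usual sign of shortened RNA. Its median signal was 37.7, against 53.4 to 65.4 on the other arrays. The 3′ over 5′ ratio of the Pcx control, a biotin enzyme, was under 10 on the arrays of transgenic replicate 1 and wild type replicate 3 and above it on the rest. Test results of the members are therefore given over all 6 arrays and without transgenic replicate 2. Srebf1, which encodes SREBP-1, had signals of 3471, 4753 and 4338 in transgenic fat and 1802, 2040 and 2036 in wild type fat. The sources used here do not say whether this probe set also detects transgene RNA.

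Transgenic replicate 2 also read some member probe sets far below its group. On the log2 scale it lay under the mean of transgenic replicates 1 and 3 by over 2 in 4 of 16 member probe sets, against 11.4% of all tested probe sets. The departures were -3.84 and -3.73 for a pair of Mccc2 probe sets, -3.71 for Bcat2 and -2.51 for Bckdha. It was within 0.1 for Ivd 1418238_at (0.06) and Pcca 1451405_at (-0.10). The plot of signals by array shows these points apart from their group.

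**Figure D1:**
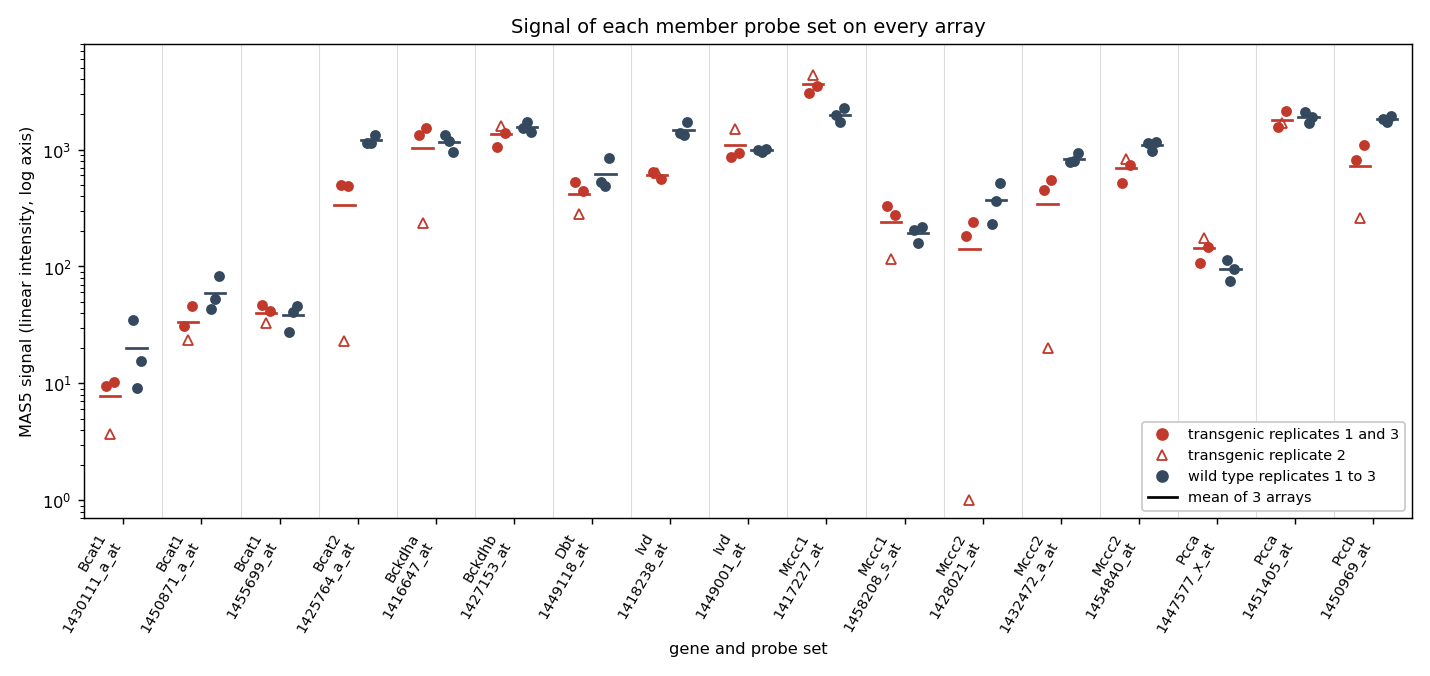
MAS5 signal (log axis) of all 17 member probe sets on every array, transgenic left of wild type within each column. Open triangles are transgenic replicate 2 and bars are means of 3 arrays. Ivd 1418238_at, Bcat2 and Pccb lie below every wild type array, and Mccc1 1417227_at lies above. Transgenic replicate 2 falls far below its group in Mccc2 1428021_at and 1432472_a_at, Bcat2 and Bckdha, but not in Mccc2 1454840_at.

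The comparison asked which enzymes of this pathway have RNA levels in transgenic fat that differ from wild type fat. Over all 6 arrays 1 of 16 tested member probe sets passed an adjusted p of 0.05 (limma, Benjamini-Hochberg, written BH-adjusted p below), where 2.97% of all 27022 tested probe sets did. It was Ivd 1418238_at, which fell to a mean signal of 609 ± 44.7 in transgenic fat, against 1470 ± 205 in wild type fat (SD, n = 3 each). Without transgenic replicate 2, 6 of 16 passed, where 13.2% of all did. Those of Bcat2, Ivd, Pccb and a pair of Mccc2 were lower in transgenic fat, by 1.65 to 2.40-fold, and Mccc1 1417227_at was 1.65-fold higher. Bcat1, the 3 genes of the dehydrogenase complex and Pcca had no probe set past the threshold in either fit.

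Lower calls alone made up 1.3% of tested probe sets over 6 arrays and 6.23% without transgenic replicate 2, beside 1 of 16 and 5 of 16 members. The median log2 fold change of the 16 member probe sets was -0.54, against -0.09 for all tested probe sets, and -0.32 against 0.03 without transgenic replicate 2. Of the 16, 11 lay below 0 in each fit, where 57.1% and 47.6% of all tested probe sets did. Groups did not overlap in 6 of 16 members (5 lower, 1 higher), where 27.2% of all tested probe sets did not overlap (15.3% lower, 11.9% higher). With each gene read by its brightest tested probe set, 0 of 10 genes passed over 6 arrays, where 3.77% of 13111 genes did. Of the 10, 4 had an unadjusted p under 0.05 in limma, where 18.4% of all genes did. Without transgenic replicate 2, 4 passed (Bcat2, Mccc2 and Pccb lower, Mccc1 higher), where 15.4% of all genes did. Ivd was read by 1449001_at in both counts, so its probe set 1418238_at, called in both fits, is not in them. Mean signals of 1449001_at and 1418238_at were 1096 and 609 in transgenic fat and 985 and 1470 in wild type fat.

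**Figure D2:**
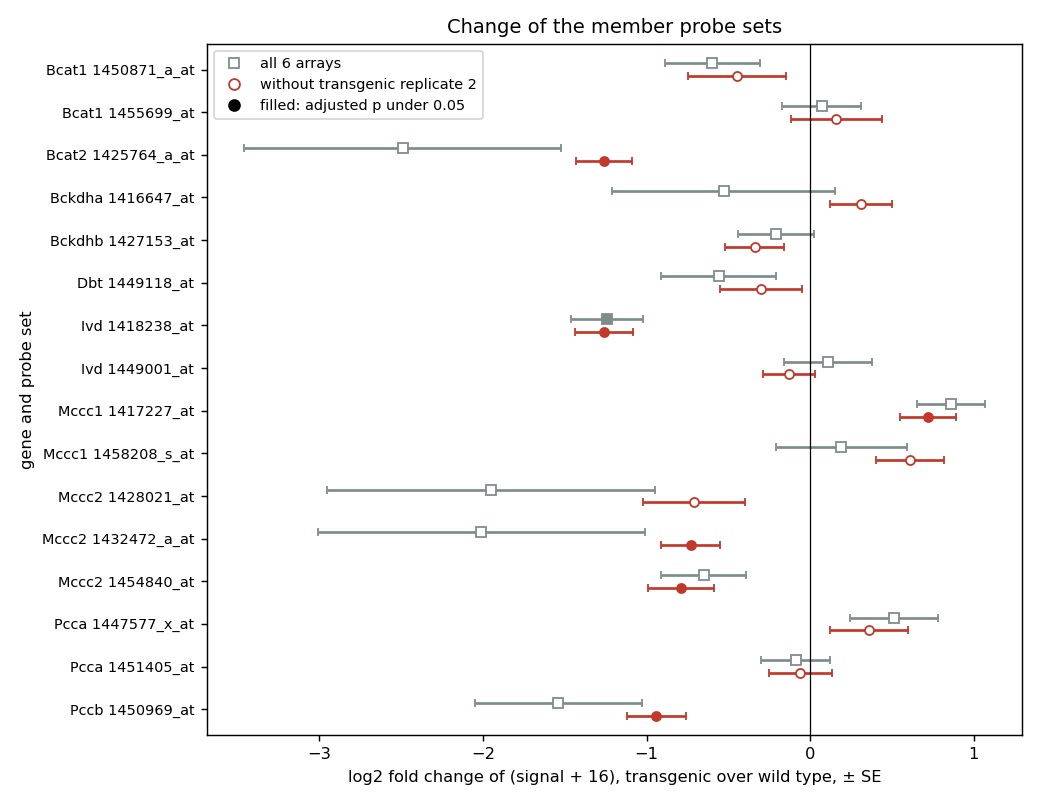
Log2 fold change of (signal + 16), transgenic over wild type, with its SE, for the 16 tested member probe sets. Grey squares use all 6 arrays, red circles leave out transgenic replicate 2, and filled symbols passed an adjusted p of 0.05. Leaving out that array shortens most error bars, and 6 probe sets pass, against 1 with all arrays.

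Bcat2, the mitochondrial transaminase that carries the first step in most tissues, had signals of 497, 23.0 and 489 in transgenic fat and 1131, 1148 and 1333 in wild type fat. Every transgenic array was below every wild type array, and the transgenic mice other than replicate 2 nearly matched each other. The log2 fold change was -2.49 ± 0.97 (SE, BH-adjusted p = 0.269) over 6 arrays. Without transgenic replicate 2 it was -1.26 ± 0.17 (BH-adjusted p = 0.00127), a 2.39-fold lower level. The direction was the same in both.

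Bcat1, the cytosolic transaminase known mainly from brain and dividing cells, was dim. Its brightest probe set, 1450871_a_at, read 31.0, 23.3 and 45.8 in transgenic fat and 43.3, 52.6 and 82.5 in wild type fat, and 1455699_at read 33.0 to 46.6 against 27.5 to 46.3. The groups overlap in both. The log2 fold changes were -0.60 ± 0.29 and 0.07 ± 0.24 (SE, BH-adjusted p = 0.365 and 0.906), and -0.45 ± 0.30 and 0.16 ± 0.28 without transgenic replicate 2 (BH-adjusted p = 0.389 and 0.768). Its other probe set, 1430111_a_at, read 3.7 to 10.3 in transgenic fat and 9.2 to 35.1 in wild type fat and was too dim to be tested.

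Bckdha, the decarboxylase subunit that is the target of the complex's inhibitory kinase, read 1319, 235 and 1520 in transgenic fat and 1320, 1190 and 944 in wild type fat. The groups overlap, and its sign turned with transgenic replicate 2: the log2 fold change was -0.53 ± 0.68 (SE, BH-adjusted p = 0.720) with that array and 0.31 ± 0.19 (BH-adjusted p = 0.354) without it. Bckdhb, the partner subunit, read 1062, 1588 and 1390 in transgenic fat and 1517, 1705 and 1414 in wild type fat. These overlap as well, with -0.21 ± 0.23 (SE, BH-adjusted p = 0.672), and -0.34 ± 0.18 (BH-adjusted p = 0.280) without that array.

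Dbt, the acyltransferase core of the complex, read 529, 279 and 446 in transgenic fat and 523, 491 and 855 in wild type fat. Its groups overlap, and its log2 fold change was -0.56 ± 0.35 (SE, BH-adjusted p = 0.477), and -0.30 ± 0.25 (BH-adjusted p = 0.504) without transgenic replicate 2. None of the 3 genes of the complex was called, at changes smaller than that of Bcat2 in each fit. Dld, the subunit this complex shares with pyruvate dehydrogenase, had 0.37 ± 0.23 (SE, BH-adjusted p = 0.477), and 0.21 ± 0.17 without that array (BH-adjusted p = 0.495).

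Ivd, the dehydrogenase that takes isovaleryl-CoA in the leucine branch, was read by a pair of bright probe sets with different outcomes. In transgenic fat 1418238_at read 644, 625 and 559, and in wild type fat 1373, 1331 and 1705. The transgenic arrays lay close together and well below the wild type range, transgenic replicate 2 included. The log2 fold change was -1.24 ± 0.22 (SE, BH-adjusted p = 0.0348), a 2.37-fold lower level, and -1.26 ± 0.18 (BH-adjusted p = 0.00182) without that array. The call was lost when transgenic replicate 1 or 3 or any wild type array was left out (BH-adjusted p = 0.0566 to 0.227), with log2 fold changes of -1.31 to -1.13, and with the class of Pcx ratio as a block (BH-adjusted p = 0.0532). Within the classes of Pcx ratio the change was -1.38 (1 array a side) and -1.17.

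The other Ivd probe set, 1449001_at, read 863, 1488 and 939 in transgenic fat and 984, 955 and 1016 in wild type fat. Transgenic replicate 2 was the highest of all 6 and the other transgenic arrays were just below wild type. Its log2 fold change was 0.11 ± 0.27 (SE, BH-adjusted p = 0.855), and -0.13 ± 0.16 (BH-adjusted p = 0.681) without that array. The annotation lists the same accession for both probe sets, and the sources used here do not say which stretch of the transcript each reads. The fall of Ivd therefore rests on 1418238_at.

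Mccc1 encodes the biotin-carrying subunit of methylcrotonyl-CoA carboxylase. Its bright probe set 1417227_at read 3024, 4325 and 3502 in transgenic fat and 1964, 1728 and 2253 in wild type fat. All transgenic arrays were above all wild type arrays. The log2 fold change was 0.86 ± 0.21 (SE, BH-adjusted p = 0.0968) over 6 arrays and 0.72 ± 0.17 (BH-adjusted p = 0.0212) without transgenic replicate 2. The dimmer 1458208_s_at, of a type that can read more than 1 transcript, read 331, 117 and 276 in transgenic fat and 207, 158 and 218 in wild type fat. It had 0.19 ± 0.40 (SE, BH-adjusted p = 0.833), and 0.61 ± 0.21 (BH-adjusted p = 0.0988) without that array.

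Mccc2 encodes the partner subunit, which carries the carboxyl transfer. Its brightest probe set, 1454840_at, read 522, 838 and 737 in transgenic fat and 1136, 981 and 1154 in wild type fat, and the groups do not overlap. It had a log2 fold change of -0.65 ± 0.26 (SE, BH-adjusted p = 0.274), and -0.79 ± 0.20 (BH-adjusted p = 0.0285) without transgenic replicate 2. The probe set 1432472_a_at read 453, 19.9 and 547 in transgenic fat and 777, 795 and 937 in wild type fat, and 1428021_at read 183, 1.0 and 239 in transgenic fat and 231, 362 and 520 in wild type fat. Transgenic replicate 2 was near background in both of these. Without it their changes were -0.73 ± 0.18 (SE, BH-adjusted p = 0.0310) and -0.71 ± 0.31 (BH-adjusted p = 0.179), close to that of 1454840_at.

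Pcca encodes the biotin-carrying subunit of propionyl-CoA carboxylase, which serves isoleucine and valine. Its bright probe set 1451405_at read 1544, 1691 and 2140 in transgenic fat and 2103, 1690 and 1916 in wild type fat. The groups overlap, with a log2 fold change of -0.09 ± 0.21 (SE, BH-adjusted p = 0.846). Its dimmer 1447577_x_at, a type prone to cross-hybridization, read 107 to 175 in transgenic fat and 75.2 to 114 in wild type fat, with 0.51 ± 0.27 (BH-adjusted p = 0.409). Without transgenic replicate 2 1451405_at had -0.06 ± 0.19 and 1447577_x_at 0.36 ± 0.24 (BH-adjusted p = 0.885 and 0.396).

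Pccb encodes the carboxyltransferase subunit of the same enzyme. It read 819, 259 and 1095 in transgenic fat and 1834, 1728 and 1935 in wild type fat. All transgenic arrays were below all wild type arrays, whose spread was small. The log2 fold change was -1.54 ± 0.51 (SE, BH-adjusted p = 0.196) over 6 arrays, and -0.94 ± 0.18 (BH-adjusted p = 0.00790) without transgenic replicate 2, a 1.92-fold lower level.

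Within both classes of Pcx ratio, Bcat2, Mccc2 1454840_at and Pccb lay lower and Mccc1 1417227_at higher in transgenic fat. The log2 difference of Bcat2 was -1.39 in the low class, with 1 array a side, and -3.04 in the high class, which holds transgenic replicate 2. It was 0.42 and 1.07 for Mccc1, -1.12 and -0.42 for Mccc2, and -1.23 and -1.70 for Pccb. With transgenic replicate 2 left out of the high class, which leaves 1 transgenic array there, it was -1.19 for Bcat2, 0.92 for Mccc1, -0.51 for Mccc2 and -0.69 for Pccb.

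The subunits of an enzyme can be set against each other within an array, where a scaling factor common to the whole array largely drops out. In all, 4 log2 ratios, 3 of subunits and 1 of both Ivd probe sets, were computed after the values had been seen. The ratio of Mccc1 1417227_at over Mccc2 1454840_at, the brightest probe sets of both genes, was 2.50, 2.35 and 2.22 in transgenic fat and 0.78, 0.81 and 0.96 in wild type fat. It was 1.51 higher in transgenic fat, and also 1.51 without transgenic replicate 2. Within the low and high classes of Pcx ratio it was 1.54 and 1.49 higher. Other tested probe sets of these genes, added after the values had been seen and with no test, gave differences that moved with transgenic replicate 2: over all 6 pairs of Mccc1 and Mccc2 probe sets the difference was 0.84 to 2.86 with that array and 1.32 to 1.51 without it. For Mccc1 1458208_s_at over Mccc2 1454840_at the ratio was -2.69 on transgenic replicate 2, below the wild type range of -2.52 to -2.32. In the other 5 pairs every transgenic array was above every wild type array, as in all 6 without that array.

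The ratio of Pcca 1451405_at over Pccb was 0.90, 2.63 and 0.96 in transgenic fat and 0.20, -0.03 and -0.01 in wild type fat. The groups do not overlap, and the difference of 1.45 was 0.88 without transgenic replicate 2. With Pcca 1447577_x_at in its place the groups did not overlap either, and the difference was 2.05, and 1.30 without that array. The Bckdha over Bckdhb ratio overlapped between the groups, at 0.31, -2.68 and 0.13 in transgenic fat and -0.20, -0.51 and -0.58 in wild type fat. The ratio of Ivd 1418238_at over 1449001_at was -0.41, -1.23 and -0.73 in transgenic fat and 0.47, 0.47 and 0.74 in wild type fat. By a two-sided exact permutation test p was 0.10 for each ratio other than that of Bckdha over Bckdhb (p = 1.0), the smallest that 3 against 3 arrays allow, and 0.133 adjusted over the 4 ratios. Since the ratios were picked after the values had been seen, these p-values add no support. Mccc1 1417227_at lay above and Mccc2 1454840_at below every wild type array, so the outcome for their ratio was fixed beforehand.

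**Figure D3:**
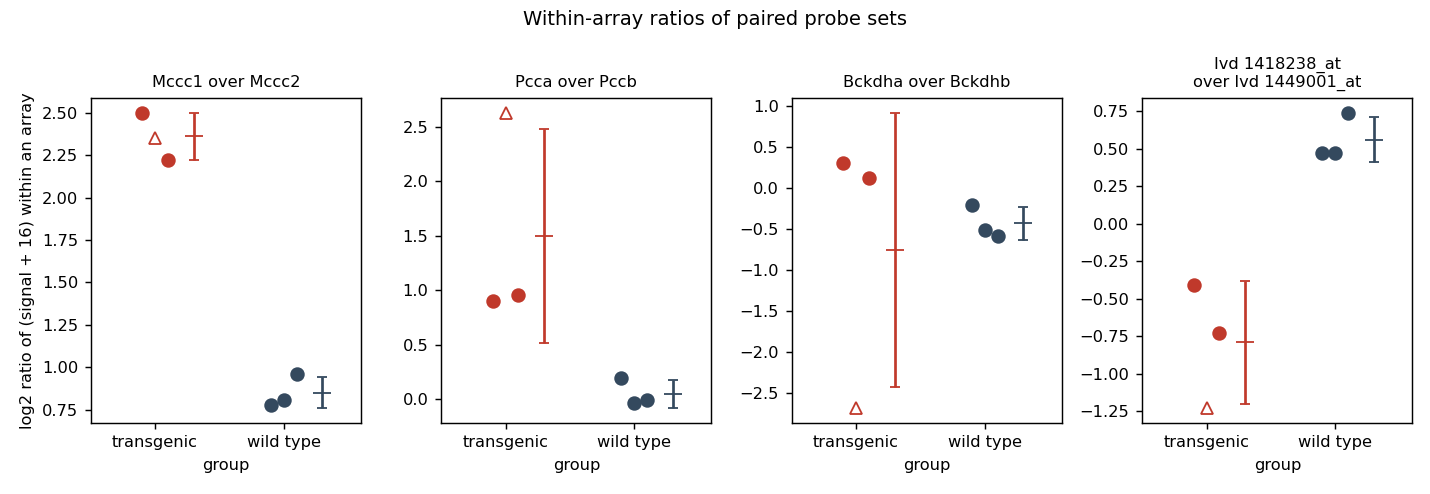
Log2 ratio of (signal + 16) of paired probe sets (the brightest of each gene, and both of Ivd) within each array, with the mean and SD of 3 arrays beside the points. Transgenic arrays are red and left (triangle for replicate 2), wild type arrays dark and right. The Mccc1 over Mccc2 ratio lies between 2.22 and 2.50 in transgenic fat and between 0.78 and 0.96 in wild type fat.

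Genes that control or supply the pathway included the called transcription factor Klf15, a Krueppel-like factor known to raise Bcat2 and other amino acid catabolic genes in muscle and liver. Klf15 read 213, 345 and 310 in transgenic fat and 964, 878 and 948 in wild type fat, with no overlap, and fell by 1.66 on the log2 scale (SE 0.26, BH-adjusted p = 0.0242, highest 0.161 when an array was dropped). Without transgenic replicate 2 it fell by 1.79 (SE 0.20, BH-adjusted p = 0.000461). Of the 9 genes of this list 1 fell and 8 did not pass over 6 arrays, and 3 rose and 3 fell without transgenic replicate 2, where 8.04% and 7.33% of all genes did. The median log2 fold change of the 9 was -0.22, and 0.09 without that array, against -0.04 and 0.02 for all 13111 genes.

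Bckdk, the kinase that switches the dehydrogenase off, read 313, 8.0 and 468 in transgenic fat and 674, 580 and 561 in wild type fat. Ppm1k, the phosphatase that switches it on, read 135, 211 and 149 in transgenic fat and 251, 274 and 281 in wild type fat. By these probe sets, the brightest of each gene, both were below wild type on every transgenic array. Their log2 fold changes were -1.99 ± 1.06 and -0.67 ± 0.25 (SE, BH-adjusted p = 0.414 and 0.251). Without transgenic replicate 2 they were -0.63 ± 0.21 (BH-adjusted p = 0.0914) and -0.85 ± 0.19 (BH-adjusted p = 0.0164), so Ppm1k passed and Bckdk did not. A dimmer Bckdk probe set, 1443813_x_at, read 43.2, 23.8 and 46.5 in transgenic fat and 75.3, 50.3 and 33.9 in wild type fat, which overlap. It had -0.35 ± 0.31 (BH-adjusted p = 0.61), and -0.14 ± 0.3 (BH-adjusted p = 0.82) without that array.

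Slc25a44, the mitochondrial carrier for these amino acids, had 0.03 ± 0.55 (SE, BH-adjusted p = 0.986) over 6 arrays and 0.67 ± 0.19 (BH-adjusted p = 0.0480) without transgenic replicate 2. Among the transporters of the cell surface, Slc7a5 read 184, 74.8 and 223 in transgenic fat and 59.0, 59.9 and 44.7 in wild type fat, each transgenic array above wild type. Its log2 fold change was 1.22 ± 0.39 (SE, BH-adjusted p = 0.182), and 1.64 ± 0.22 (BH-adjusted p = 0.00132) without that array. Slc43a2 was higher (1.17 ± 0.27, BH-adjusted p = 0.0209) and Slc43a1 lower (-0.86 ± 0.20, BH-adjusted p = 0.0227) in that fit, and neither passed with all arrays (BH-adjusted p = 0.0964 and 0.321).

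Of 17 further breakdown enzymes tested 0 passed over 6 arrays (5 at an unadjusted p under 0.05 in limma, where 18.4% of all genes were), and 3 rose and 3 fell without transgenic replicate 2. Of all genes 3.77% passed over 6 arrays, and 8.04% rose and 7.33% fell without that array. Their median log2 fold change was -0.19, and -0.06 without that array. Oxct1, which activates ketone bodies and stands beside the leucine end products, read 1355, 2705 and 1525 in transgenic fat and 4438, 3712 and 3371 in wild type fat. The log2 fold change was -1.10 ± 0.29 (SE, BH-adjusted p = 0.121), and -1.40 ± 0.17 (BH-adjusted p = 0.000620) without transgenic replicate 2. All 4 Oxct1 probe sets were below wild type on every transgenic array, and 3 of them passed without that array. Mcee, the epimerase just past propionyl-CoA carboxylase, had -1.09 ± 0.36 (BH-adjusted p = 0.197), and -0.71 ± 0.17 (BH-adjusted p = 0.0246) without that array.

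Aldh6a1, the valine-branch dehydrogenase that forms propionyl-CoA, had -0.31 ± 0.26 (SE, BH-adjusted p = 0.582), and -0.58 ± 0.15 (BH-adjusted p = 0.0307) without transgenic replicate 2. The genes that rose by their brightest probe set without that array were Acadsb, the isoleucine-branch acyl-CoA dehydrogenase (0.88 ± 0.16, BH-adjusted p = 0.00706), and Hadha and Hadhb (0.81 ± 0.19 and 0.58 ± 0.16, BH-adjusted p = 0.0215 and 0.0437), the subunits of the trifunctional protein of fatty acid oxidation. A dimmer probe set of Acaa2, 1455061_a_at, passed in that fit (0.65 ± 0.18, BH-adjusted p = 0.0405), and its brightest did not (0.43 ± 0.17, BH-adjusted p = 0.147). Over 6 arrays Hadha had -0.25 ± 0.84 (BH-adjusted p = 0.897), with a signal of 359.5 on transgenic replicate 2, and Hadhb had 0.71 ± 0.20 (BH-adjusted p = 0.130). Acadsb lies in the step that matches Ivd in the leucine branch, and read 1970, 1745 and 1891 in transgenic fat, against 1087, 1116 and 928 in wild type fat. Its groups do not overlap, and over 6 arrays it had 0.83 ± 0.20 (BH-adjusted p = 0.0870). Hibch, of the valine branch, and Mmut, the mutase that ends the propionyl route, were not called in either fit. Over 6 arrays they had -0.1 ± 0.34 and -0.8 ± 0.4 (SE, BH-adjusted p = 0.901 and 0.38). Without transgenic replicate 2 they had -0.46 ± 0.17 and -0.35 ± 0.17 (BH-adjusted p = 0.121 and 0.220). By its brightest probe set Mmut was below wild type on every transgenic array. Another tested Mmut probe set, 1448486_at, overlapped between the groups. It had 0.3 ± 0.31 (BH-adjusted p = 0.66) over 6 arrays and 0.06 ± 0.22 (BH-adjusted p = 0.910) without transgenic replicate 2.

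**Figure D4:**
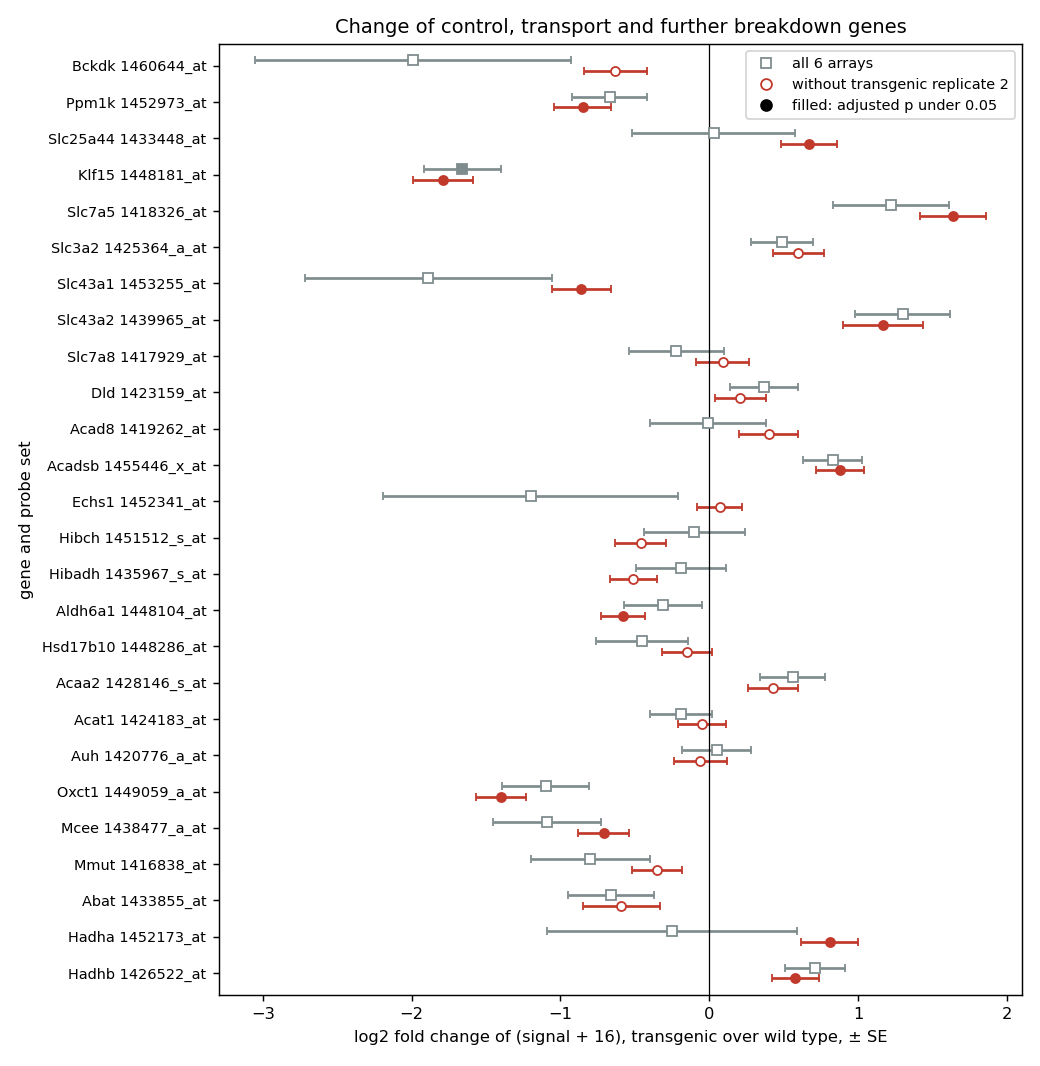
Log2 fold change of (signal + 16), transgenic over wild type, with its SE, for 9 control and transport genes (top) and 17 further breakdown enzymes, each by its brightest tested probe set. Grey squares use all 6 arrays, red circles leave out transgenic replicate 2, and filled symbols passed an adjusted p of 0.05. Klf15 alone is filled with all arrays, and Oxct1 lies lowest among the enzymes without transgenic replicate 2.

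Enzymes of the citric acid cycle, which work in mitochondria as do the members other than Bcat1, are given for comparison, each by its brightest probe set. Of 15 tested 0 passed over 6 arrays, where 3.77% of all genes did, and 1 had an unadjusted p under 0.05 in limma, where 18.4% did. Without transgenic replicate 2, 0 passed and 2 had an unadjusted p under 0.05, where 15.4% and 29.3% of all genes did. Their median log2 fold changes in these fits were 0.20 and 0.15. A dimmer probe set of Cs, citrate synthase, 1422577_at, rose by 0.82 ± 0.18 (SE, BH-adjusted p = 0.0150) without that array. Among genes that handle biotin and cobalamin, cofactors of the carboxylases and of Mmut, 0 of 10 passed over 6 arrays, where 3.77% of all genes did. An unadjusted p under 0.05 in limma was reached by 1, where 18.4% of all genes did so. Without transgenic replicate 2, 2 of 10 rose, where 8.04% of all genes did. They were Mmadhc (0.89 ± 0.17, BH-adjusted p = 0.00940) and Abcd4 (1.39 ± 0.20, BH-adjusted p = 0.00181). Over 6 arrays Mmadhc had 1.07 ± 0.24 and Abcd4 0.52 ± 0.69 (BH-adjusted p = 0.0737 and 0.727). Hlcs, which attaches biotin to the carboxylases, had -1.12 ± 0.67 (BH-adjusted p = 0.457), and -0.31 ± 0.22 (BH-adjusted p = 0.430) without that array.

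Of 3 other biotin enzymes 0 passed over 6 arrays, where 3.77% of all genes did (1 at an unadjusted p under 0.05 in limma, where 18.4% were). Acacb, an acetyl-CoA carboxylase of the mitochondrial surface, read 2657, 124 and 3041 in transgenic fat and 437, 877 and 731 in wild type fat, with a log2 fold change of 0.64 ± 1.15 (SE, BH-adjusted p = 0.803). It rose by 2.09 ± 0.27 (BH-adjusted p = 0.000932) without transgenic replicate 2. Pcx, pyruvate carboxylase, had -1.05 ± 0.75 (BH-adjusted p = 0.528), and -0.08 ± 0.13 (BH-adjusted p = 0.734) without that array.

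The tissue label held against its markers. All 14 adipocyte markers with a probe set were tested, and none was at 0 on any array. Their summed signal was 55532 to 72621 in transgenic fat, lowest on replicate 2, and 96751 to 107742 in wild type fat, and 2 of 14 fell over 6 arrays (1.54% of all genes did), the hormone genes Lep (-3.74 ± 0.31, BH-adjusted p = 0.00301) and Adipoq (-0.93 ± 0.18, BH-adjusted p = 0.0448). With that array left out 9 of 14 fell and 1 rose, the lipid droplet gene Cidea (2.05 ± 0.25, BH-adjusted p = 0.000691), which had 0.76 ± 1.02 (BH-adjusted p = 0.734) over 6 arrays. By sign 12 of 14 lay below 0 over 6 arrays, yet the markers were not uniform. The brightest probe set of Fabp4 had a mean signal of 13343 in both groups, and that of Lpl 11789 in transgenic and 11815 in wild type fat. Dimmer Fabp4 probe sets differed from each other. Over 6 arrays 1451263_a_at had -0.03 ± 0.12, 1424155_at -0.73 ± 0.26 and 1425809_at -2.47 ± 0.91 (SE, BH-adjusted p = 0.925, 0.235 and 0.247). The groups did not overlap for 1424155_at and 1425809_at. Without transgenic replicate 2, 1424155_at passed (-0.91 ± 0.21, BH-adjusted p = 0.0196). The summed signal of 12 macrophage markers was 32885 to 45066 in transgenic fat and 15418 to 19320 in wild type fat, and 2 of 12 rose (2.23% of all genes did), Ctss (1.6 ± 0.25, BH-adjusted p = 0.0240) and Mmp12 (2.86 ± 0.55, BH-adjusted p = 0.0473), both proteases. With transgenic replicate 2 left out 8 of 12 rose. In that fit 8.04% of all genes rose and 7.33% fell. Over 6 arrays 11 of 12 macrophage markers lay above 0, and Itgam lay below it (-0.66 ± 0.93, BH-adjusted p = 0.746). Of the 9 epididymis and testis markers with a probe set, 3 were bright enough to be tested, and the sum over all 9 was 185 to 331 in transgenic fat and 174 to 295 in wild type fat. That of 7 liver markers, mostly from Cyp2e1, which fat also expresses, was 6870 to 8174 in transgenic fat and 8096 to 9888 in wild type fat. The adipocyte sum was lower in transgenic fat and the macrophage sum was higher. Member probe sets did not all move together. Bcat2, Ivd 1418238_at, Pccb, Mccc2 1454840_at and Mccc2 1432472_a_at lay below every wild type array, and Mccc1 1417227_at above. The groups overlapped for Ivd 1449001_at, Mccc1 1458208_s_at, Mccc2 1428021_at, Bckdha, Bckdhb, Dbt, and all probe sets of Bcat1 and Pcca. What part the cell types have in the member results was not tested. In whole tissue, fewer fat cells and less RNA per fat cell cannot be told apart.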

How the data were processed

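Total RNA was hybridised to Affymetrix MOE430v2.0 arrays. The authors deposited linear signal intensity values, made with MAS5 per the submitters' processing notes, and the sources used here give no version, scaling target or detection calls. There are 0 columns of other samples. Probe sets were named through the platform annotation, where 34958 of 45101 have 1 gene symbol, 932 several and 9211 none. Listed genes without a probe set of their own were not analysed here.

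In R 4.3.3 with limma 3.58.1, log2(signal + 16) was tested without further normalization, after leaving out 64 control probe sets and the 40% with the lowest mean over all 6 arrays, so that 27022 remained. The transgenic and wild type means were compared by lmFit and eBayes (trend, two-sided). Each BH-adjusted p comes from that limma fit, with the Benjamini-Hochberg step run across the 27022 probe sets and 0.05 as the limit. Fold changes understate the change of dim genes. Gene counts use the brightest tested probe set (highest mean of the 6 arrays). Tables and figures used Python 3.11.15 with pandas 2.3.3, scipy 1.17.1 and matplotlib 3.10.9. The fit was tested on simulated data whose spread was taken without transgenic replicate 2, so that test does not cover the effect of such an array.

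Members and lists were chosen with earlier results of these data known. All members, and genes of the pathway, cofactor, biotin enzyme and citric acid cycle lists past the threshold in the fit over 6 arrays, are named, as are Bckdk, Ppm1k, Klf15, Dld, Slc25a44, Hibch, Aldh6a1, Mmut, Hlcs, Pcx and Srebf1. Other genes, such as Oxct1, Slc7a5 and the markers, were named after their values were seen. The number of arrays limits the precision. Same-numbered mice did not deviate together (correlations of -0.374, 0.0892 and -0.0507), so the numbers were not treated as pairs. The highest correlation was 0.449, between transgenic replicate 1 and wild type replicate 3, the arrays with a low Pcx ratio. This check cannot show whether other mice were matched by litter or batch. Alternatives were other offsets (1 and 64), filters and normalizations, other eBayes settings, array weights, blocks for the replicate number and for the class of Pcx ratio (limit 10), the mean over a gene's tested probe sets, and each array left out.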

Additional observations from a re-analysis of the deposited data

How the results depend on the processing

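Over all probe sets the count of calls was 802, and 3361 with array weights, 341 with the replicate number as a block (replicate block), 4971 with quantile normalization and without transgenic replicate 2, and 141 to 3565 with 1 array left out. Member probe sets called were 1, and 4 with array weights, 6 with quantile normalization and without transgenic replicate 2, 0 with centring on array medians, with the replicate block and with the class of Pcx ratio as a block, and 0 to 6 with 1 array left out. Member genes called were 0, and 3 with array weights, 4 with quantile normalization and without transgenic replicate 2, and 0 to 4 with 1 array left out. Further breakdown genes called were 0, and 1 with quantile normalization, 4 with array weights, 10 with quantile normalization and without transgenic replicate 2, and 0 to 6 with 1 array left out. Citric acid cycle genes called were 0, and 1 with array weights and 2 with quantile normalization and without transgenic replicate 2.

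Of 286 alternative fold changes of the 16 member probe sets, 253 kept their direction and side of the threshold, 13 passed it anew, 8 lost it (all of Ivd 1418238_at) and 12 changed sign, none of them past the threshold. Ivd 1418238_at kept its direction throughout, at -1.12 (BH-adjusted p = 0.124) with centring on array medians and -1.24 (BH-adjusted p = 0.189) with the replicate block. Bckdha became 0.20 with array weights and 0.26 with quantile normalization and without transgenic replicate 2, and Ivd 1449001_at became -0.06 and -0.15. Pcca 1451405_at became 0.03 with centring and 0.07 with array weights. With 1 array left out Bckdha ran from -1.0 to 0.31, Ivd 1449001_at from -0.13 to 0.26, Pcca 1451405_at from -0.23 to 0.01, Bcat1 1455699_at from -0.08 to 0.18 and Mccc1 1458208_s_at from -0.08 to 0.61. The cause of these changes was not tested. The median of all tested probe sets was -0.09, and 0.03 with quantile normalization or centring.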
